A study of Homo sapiens with 6 samples.

Results

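FGF18 and NPM1 are neighbouring genes on human chromosome 5, and the contacts described here are those of a chosen point inside FGF18 with the rest of its own gene body and with NPM1. The members are the HindIII restriction fragments that overlap either gene on the genome build hg19, NPM1 at chr5:170814708-170837888 and FGF18 at chr5:170846667-170884627. The rule takes them by position, not by their values, but members and tests were chosen with earlier results of these data known. There were 10 such fragments, 4 for NPM1 and 6 for FGF18, among 920 listed chr5 fragments within 2 Mb of the viewpoint, 20398 listed on chr5 and 206896 listed in any library. The viewpoint fragment itself, chr5:170851908-170853009, also lies in FGF18 and is described apart.

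The data are 4C-seq libraries of K562, an established human leukaemia cell line. The method fixes DNA in place, cuts it and lets nearby ends join. Partners of a single selected fragment, called the viewpoint, are then read out. The reads of a fragment thus reflect how often it was joined to the viewpoint, but they are not a count of separate joinings. There were 3 groups of 2 libraries: cells with the empty vector (EV), cells whose silencer 1 region was knocked out by CRISPR excision (S1KO), and cells with silencer 1 and silencer 2 both knocked out (DKO). The EV cells went through the CRISPR procedure too according to the treatment protocol, although their treatment label reads untreated. The series' design text calls the libraries biological replicates, and whether they came from separate clones or cultures is not given in the sources used here. The spread between libraries may therefore be technical in part.

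FGF18 encodes a secreted fibroblast growth factor. It binds fibroblast growth factor receptors with the help of heparan sulphate, and it is known for its part in bone, cartilage and lung development. NPM1 encodes nucleophosmin, an abundant nucleolar protein and histone chaperone that takes part in ribosome assembly and is often mutated in acute myeloid leukaemia. Silencers are DNA elements that lower the activity of a gene, at times by touching its promoter, and 4C-seq shows such contacts as seen from 1 end.

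In RefSeq (GRCh38.p14) both genes are read from the plus strand, from NPM1 towards FGF18. The start of FGF18 fell inside an interval that no library lists, chr5:170840932-170851907 on hg19, which adjoins the viewpoint fragment. Why no library lists it was not tested. The start of NPM1 fell in the member fragment chr5:170813639-170820834. The 250 bases just before the annotated GRCh38.p14 starts are shown as the stretches next to the gene starts. These annotated starts were not matched to the hg19 gene coordinates. Capitals mark a DpnII site (GATC), the second cut of the assay, and the HindIII site of the first cut (AAGCTT) would be in capitals too. The sites were searched on the strand shown, and both read the same on either strand.
NPM1, GRCh38.p14 chr5:171387599-171387848, plus strand: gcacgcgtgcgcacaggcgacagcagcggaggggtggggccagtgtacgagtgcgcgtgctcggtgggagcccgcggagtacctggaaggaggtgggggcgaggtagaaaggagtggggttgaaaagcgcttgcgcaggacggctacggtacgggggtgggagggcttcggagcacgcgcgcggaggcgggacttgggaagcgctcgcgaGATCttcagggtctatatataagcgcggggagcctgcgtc
FGF18, GRCh38.p14 chr5:171419397-171419646, plus strand: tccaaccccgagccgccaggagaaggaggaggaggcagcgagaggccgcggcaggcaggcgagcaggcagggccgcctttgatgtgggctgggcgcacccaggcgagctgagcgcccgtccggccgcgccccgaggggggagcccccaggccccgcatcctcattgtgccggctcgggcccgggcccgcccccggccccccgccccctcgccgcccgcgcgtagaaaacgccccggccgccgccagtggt
The NPM1 stretch held 1 DpnII site and 0 HindIII sites, and the FGF18 stretch held 0 of each. Among the 35116 promoter stretches of 250 bases in the same table, 35.8% held GATC and 5.02% held AAGCTT. A second NPM1 start in that table, with 0 sites of either kind, is not shown.

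The libraries held 708503 to 1919737 reads. With the viewpoint fragment left out, 10.1% and 3.57% of these lay within 2 Mb of it in EV. The values were 10.6% and 8.83% in S1KO and 14.0% and 21.5% in DKO. EV replicate 2, with the most reads, had 447 fragments listed within 2 Mb, against 649 to 815 in the other libraries. Within 2 Mb of the viewpoint, the viewpoint fragment left out, lay 71634 and 68545 reads in EV, 135036 and 109408 in S1KO, and 247934 and 279389 in DKO. Levels are given below as reads per 1000 of these reads, so they are shares of the contacts nearby and every direction is relative to that total. A share of 0 allows up to 3 reads, or 0.0107 to 0.0438 per 1000. The 95% Wilson intervals of the gene sums were 2.09 to 4.99 per 1000 wide, and they cover counting error only.

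In EV cells NPM1 and FGF18 together took 221 and 215 of every 1000 reads within 2 Mb in the 2 libraries. NPM1 took 121 ± 8.63 (SD, n = 2) and FGF18, without its viewpoint fragment, 97.2 ± 12.8. Per kb of fragment length, the level was 4.58 ± 0.327 for NPM1 and 2.45 ± 0.322 for FGF18, and NPM1 stood above FGF18 in 6 of 6 libraries of the 3 groups. Without the fragment of each gene nearest to the viewpoint, NPM1 stood higher in 2 of 6 libraries, at 2.12 ± 0.355 against 2.33 ± 0.285 per kb in EV. Reads come from fragment ends, so a level per kb is lower for a long fragment with the same number of joined ends.

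Each gene stood above its own outer flank, a stretch of like length just beyond it. The flank below NPM1 (3 fragments, chr5:170784301-170813634) held 48.5 ± 18.7 per 1000 in EV, or 1.65 ± 0.637 per kb. The flank above FGF18 (7 fragments, chr5:170892723-170931880) held 49.5 ± 2.76, or 1.26 ± 0.0704 per kb. The gene exceeded its flank per kb in 6 of 6 libraries for NPM1 and in 6 of 6 for FGF18. Without its fragment nearest to the viewpoint, NPM1 lay below its flank in S1KO replicate 2 (2.17 against 2.22 per kb). It also did so in DKO replicate 1 (1.68 against 1.72), and it lay above in the other libraries. FGF18 without its nearest fragment stayed above its flank in every library. The genes lie nearer to the viewpoint than their flanks, and the part of distance in this was not tested.

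**Figure D1:**
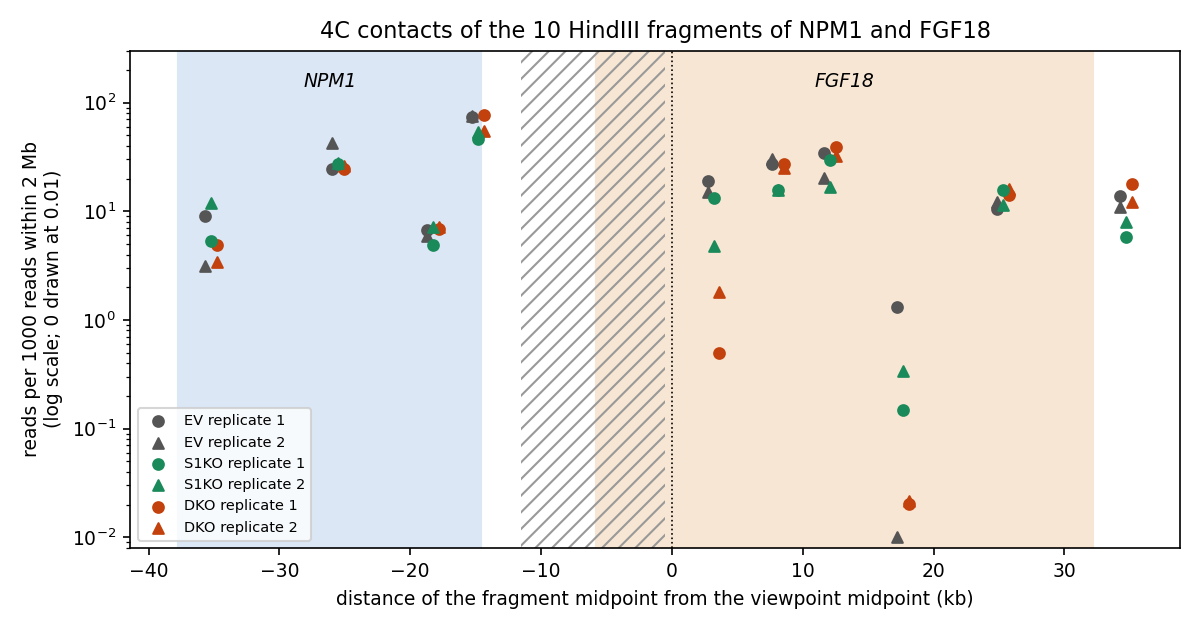
Reads per 1000 reads within 2 Mb (log scale) for the 10 member fragments by distance from the viewpoint (dotted line), 1 point per library. Shading marks the genes and hatching the interval that no library lists. The fragment 17.7 kb above the viewpoint lies far below its neighbours in all 6 libraries, and the fragment 3.19 kb above is lowest in the DKO libraries.

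The 4 NPM1 fragments differed widely among themselves. The fragment chr5:170835262-170840025, which covers the 3′ end of NPM1 and 2137 bp beyond it, held 74.4 and 75.7 per 1000 in EV, 46.6 and 54.1 in S1KO and 76.8 and 54.9 in DKO. It ranked first of 919 fragments within 2 Mb in each of the 6 libraries and took 53.6% to 67.8% of the NPM1 reads. Between it and the unlisted interval lie 2 short fragments. The fragment chr5:170820839-170833077, wholly inside NPM1, held 24.6 and 42.1 in EV, 27.1 and 27.7 in S1KO and 24.6 and 25.8 in DKO, and ranked 2 to 4.

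Between these lies chr5:170833082-170835257, which is wholly inside NPM1 and only 2.18 kb long. It held 4.94 to 7.21 per 1000 over the 6 libraries and ranked 19 to 43. The fragment with the NPM1 start, chr5:170813639-170820834, held 9.13 and 3.17 in EV, 5.32 and 12.0 in S1KO and 4.85 and 3.39 in DKO. The EV libraries lay on either side of both DKO libraries, and within EV and S1KO the replicates lay far apart.

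Of the 6 FGF18 fragments, the highest in EV lay 8.10 kb and 12.1 kb above the viewpoint. The fragment chr5:170858283-170862828 held 27.4 and 30.0 per 1000 in EV, 15.8 and 15.8 in S1KO and 27.2 and 25.2 in DKO. Both S1KO libraries lay below the other 4. The fragment chr5:170862833-170866306 held 34.1 and 20.1 in EV, 29.9 and 16.8 in S1KO and 39.4 and 32.0 in DKO, with EV and S1KO overlapping.

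The next fragment outward, chr5:170866311-170873940, had few reads in all libraries but EV replicate 1, although it is 7.63 kb long and lies between well-covered fragments. It held 94 and 0 reads in EV, 20 and 37 in S1KO and 5 and 6 in DKO. As shares these are 1.31 and 0, 0.148 and 0.338, and 0.0202 and 0.0215 per 1000. Both DKO libraries lay below both S1KO libraries, while the EV libraries lay on either side of all 4. The median fragment within 2 Mb that had at least 10 reads in 2 libraries held 0.160 to 0.444 per 1000, so the share of this FGF18 fragment was below that median in 5 of 6 libraries.

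The 2 outer FGF18 fragments were well covered in each library. The fragment chr5:170873945-170881637, 25.3 kb above the viewpoint, held 10.5 and 12.1 per 1000 in EV, 15.7 and 11.5 in S1KO and 14.3 and 16.0 in DKO. The last, chr5:170881642-170892718, covers the 3′ end of FGF18 and 8091 bp beyond it. It held 13.8 and 11.0 in EV, 5.78 and 8.01 in S1KO and 17.9 and 12.1 in DKO, with both S1KO libraries below the other 4.

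The viewpoint fragment held 5073 and 13074 reads in EV, 7302 and 5556 in S1KO and 49129 and 19661 in DKO. That was 6.61% (95% Wilson interval 6.44% to 6.79%) and 16.0% (15.8% to 16.3%) of the reads within 2 Mb in EV. It was 5.13% (5.02% to 5.25%) and 4.83% (4.71% to 4.96%) in S1KO, and 16.5% (16.4% to 16.7%) and 6.57% (6.49% to 6.66%) in DKO. The high libraries were EV replicate 2 and DKO replicate 1, so EV and DKO overlapped. Both S1KO libraries lay below every EV and DKO library.

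The fragment next to it inside FGF18, chr5:170853014-170858278, lies wholly inside the gene. It held 1370 and 1023 reads in EV, 1806 and 523 in S1KO and 122 and 500 in DKO. As shares these are 19.1 and 14.9 per 1000 in EV, 13.4 and 4.78 in S1KO and 0.492 and 1.79 in DKO. The 3 groups did not overlap, and the DKO mean was 0.0670 times the EV mean. Among the 919 fragments within 2 Mb it ranked 5 and 8 in EV, 11 and 43 in S1KO and 327 and 110 in DKO. The viewpoint share of EV replicate 2 was about as high as that of DKO replicate 1 (16.0% and 16.5%), while the next fragment held 14.9 and 0.492 per 1000 in these libraries. For each 100 viewpoint reads it held 27.0 and 7.82 reads in EV, 24.7 and 9.41 in S1KO and 0.248 and 2.54 in DKO, and the part of the viewpoint share in its level was not tested.

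**Figure D2:**
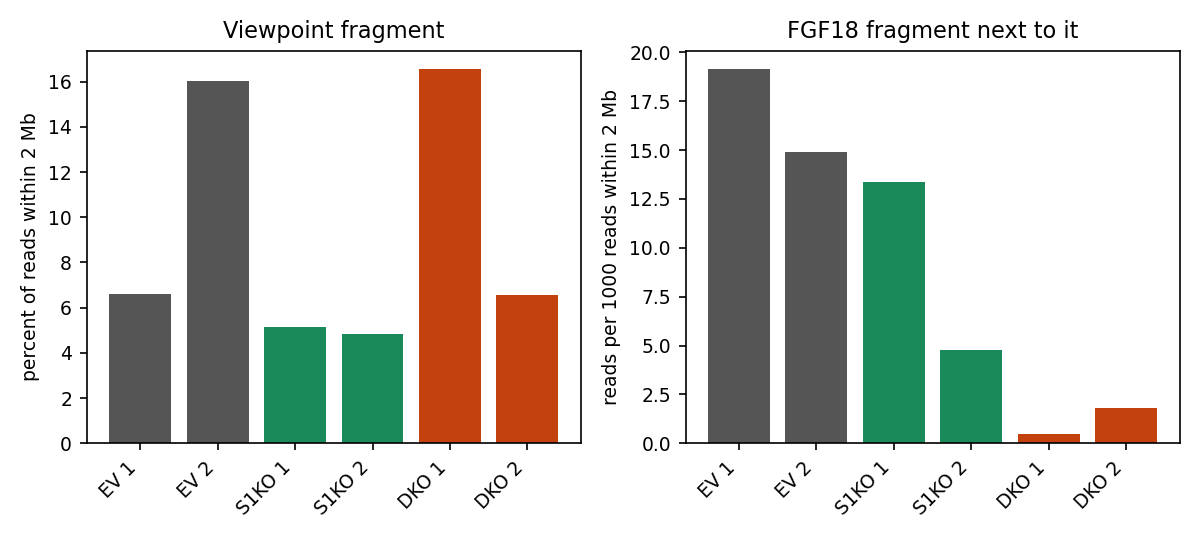
Left, the viewpoint fragment as percent of reads within 2 Mb in each library (6.61, 16.0, 5.13, 4.83, 16.5 and 6.57). Right, the FGF18 fragment next to it in reads per 1000 reads within 2 Mb, lowest in the DKO libraries at 0.492 and 1.79.

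The first comparison set removal of silencer 1 alone against EV. NPM1 and FGF18 together took 165 and 158 per 1000 in the S1KO libraries, below both EV libraries (221 and 215). NPM1 took 84.0 and 101 in S1KO against 115 and 127 in EV, and FGF18 took 80.7 and 57.3 against 106 and 88.1. The groups did not overlap for either gene. The S1KO mean was 0.765 times the EV mean for NPM1, a difference of -28.3 (SE 10.5), and 0.710 times for FGF18, a difference of -28.2 (SE 14.8). The exact two-sided permutation p was 0.333 for each, the smallest that 2 libraries against 2 can give, and 0.75 after Benjamini-Hochberg adjustment over 9 such tests. In shares of all chr5 reads the differences shrank to -4.31 for NPM1 and -6.71 for FGF18. That of NPM1 was -3.71 without its 3′ end fragment, and that of FGF18 was -8.67 without fragments within 10 kb of the viewpoint.

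A fit over all chr5 fragments did not call these differences. With each gene summed to 1 feature, the log2 fold change was -0.39 (SE 0.11, edgeR adjusted p = 0.445) for NPM1 and -0.49 (SE 0.14, edgeR adjusted p = 0.445) for FGF18, and 0 of 5011 features (0.0%) passed. Among the single fragments 0 of 10 members passed, as did 0 of 5019 fragments tested (0.0%). Unadjusted p-values under 0.05 were found for 3 of the 10 members and for 1.22% of all fragments, 61 in number. DESeq2 called 0 members and 7 of the 1030 fragments to which it gave an adjusted p. All 10 members passed the filter of at least 10 reads in at least 2 libraries. Members hold many more reads than most fragments, and their relative counting error is the smaller for it.

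The NPM1 fragment with the 3′ end stood at log2 -0.57 (SE 0.14), the FGF18 fragment chr5:170858283-170862828 at -0.86 (SE 0.20) and the last FGF18 fragment, chr5:170881642-170892718, at -0.84 (SE 0.34), each with an edgeR adjusted p of 0.445. For 4 of 10 members (1 of NPM1 and 3 of FGF18) the higher S1KO library lay below the lower EV library, and for 0 the reverse held. Over the 791 fragments tested within 2 Mb, 10.9% lay lower in this way and 19.8% higher. The median log2 fold change was -0.43 over the 10 members and 0.03 over all fragments tested. With all chr5 reads and TMM scaling these medians were -0.21 and 0.18. With no filter on low counts both gene sums passed (edgeR adjusted p = 3.1e-06 for NPM1 and 1.0e-07 for FGF18), the 2 called of 20389 features (0.00981%). At nearly the same log2, the SE was 0.06 and 0.07 there, against 0.26 and 0.28 with at least 10 reads in all 6 libraries. Neither sum passed under that filter (edgeR adjusted p = 0.84 and 0.78), nor with DESeq2 (SE 0.54 and 0.56). With 1 library left out the FGF18 sum ran from -0.76 (without S1KO replicate 1) to -0.27 (without S1KO replicate 2). With all chr5 reads as library size and TMM scaling it was -0.29 (SE 0.28), and the NPM1 sum was -0.19 (SE 0.13).

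**Figure D3:**
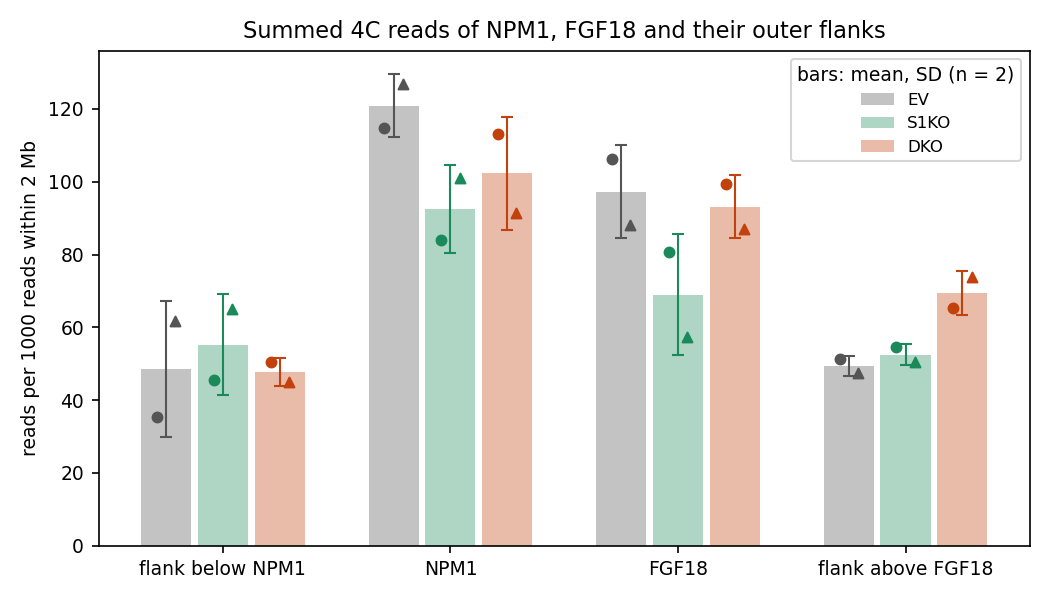
Summed reads of NPM1, FGF18 and the outer flank of each, per 1000 reads within 2 Mb. Bars show the mean and SD of 2 libraries per group and points the libraries. The S1KO points for NPM1 (84.0 and 101) and FGF18 (80.7 and 57.3) lie below the EV points, while the DKO points overlap them for FGF18.

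Removal of both silencers was compared with EV in the same way. NPM1 took 113 and 91.3 per 1000 in DKO and FGF18 took 99.3 and 87.1. For NPM1 both DKO libraries lay below both EV libraries, with a difference of -18.6 (SE 12.5, exact permutation p = 0.333). For FGF18 the groups overlapped, with a difference of -4.02 (SE 10.9, exact permutation p = 0.667). The log2 fold changes of the sums were -0.24 (SE 0.11, edgeR adjusted p = 0.56) for NPM1 and -0.06 (SE 0.14, edgeR adjusted p = 0.96) for FGF18, and 0 of 5011 features (0.0%) passed. Unadjusted p-values were under 0.05 for 105 of the 5011 features, the NPM1 sum among them. DESeq2 called 27 of the 1222 features to which it gave an adjusted p, and neither gene sum was among them. The NPM1 sum ran from -0.40 (without DKO replicate 1) to -0.09 (without DKO replicate 2).

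These directions depend on the total used. With all chr5 reads and TMM scaling the DKO sums stood above EV, at log2 0.67 for NPM1 and 0.81 for FGF18. The median log2 fold change over all fragments then moved from 0 to 0.60, and that of the members from -0.16 to 0.75. In shares of all chr5 reads the differences were 10.9 and 14.1 per 1000, with DKO the higher.

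Within FGF18 the fragment next to the viewpoint fell in DKO, and it was the only fragment of the 5019 tested that passed. Its log2 fold change was -3.90 (SE 0.61, edgeR adjusted p = 0.038). The call thus covered 1 of 10 members and 0.0199% of all fragments. DESeq2 called it too (log2 -3.65, DESeq2 adjusted p = 0.0016) as 1 of 28 fragments, or 2.12% of the 1322 to which it gave an adjusted p. The call was lost with chr5 reads as library size and TMM scaling together (log2 -2.96, edgeR adjusted p = 0.47). It was also lost, at the same log2 -3.90 but a larger SE, with only fragments within 2 Mb in the fit (SE 0.70, edgeR adjusted p = 0.14) and with only the 4 libraries compared (SE 0.71, edgeR adjusted p = 0.15). Without EV replicate 1 it stood at -3.71 (edgeR adjusted p = 0.58) and without EV replicate 2 at -4.07 (edgeR adjusted p = 0.77). The fold change lay between -5.11 and -3.25 with any 1 library left out. Whether an excision removed part of this fragment was not tested, since the places of the silencers are not given.

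A measure that needs no library size is the percent of the FGF18 reads that this fragment held. That was 18.0% and 16.9% in EV, 16.6% and 8.34% in S1KO and 0.496% and 2.06% in DKO. Without this fragment the rest of FGF18 took 87.1 and 73.2 per 1000 in EV, 67.3 and 52.5 in S1KO and 98.8 and 85.3 in DKO. The DKO minus EV difference of FGF18 then turned from -4.02 to 11.9 per 1000, with the groups still overlapping.

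The other 9 members did not pass in DKO against EV. Their log2 fold changes lay between -4.92 (SE 3.63), for the sparse fragment chr5:170866311-170873940, and 0.42 (SE 0.30), for chr5:170873945-170881637. The NPM1 fragment with the 3′ end stood at -0.19 (SE 0.14, edgeR adjusted p = 0.56). Both DKO libraries lay above both EV libraries for 2 of 10 members and below for 2, against 23.3% and 14.3% of the fragments tested within 2 Mb. The median log2 fold change was -0.16 over the 10 members and 0 over all fragments tested, and unadjusted p-values under 0.05 were found for 1 member and for 2.13% of fragments. The flank above FGF18 held 65.2 and 73.8 per 1000 in DKO, above the 47.5 to 54.5 of the other 4 libraries, while the flank below NPM1 held 50.4 and 44.9, within their range.

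**Figure D4:**
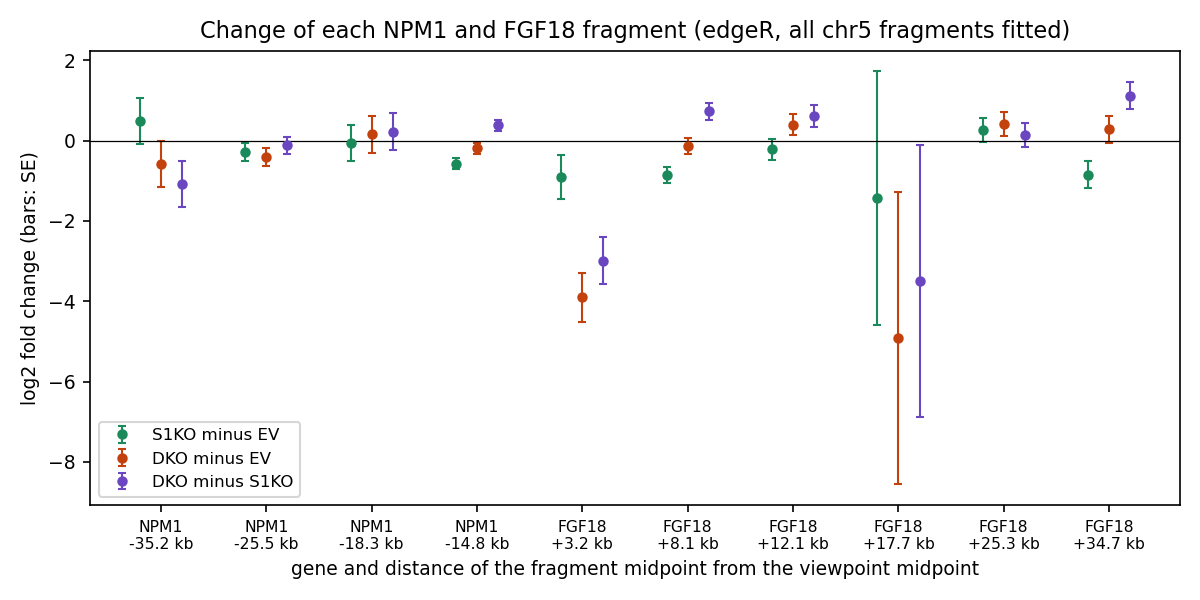
Log2 fold change with its SE for each member fragment in the 3 comparisons, ordered by position. The fragment 3.19 kb above the viewpoint stands at -3.90 in DKO minus EV, and the one 17.7 kb above has the widest SE (3.63 in that comparison).

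The last comparison, DKO with S1KO, differs by the removal of silencer 2. FGF18 took more in DKO (99.3 and 87.1 per 1000) than in S1KO (80.7 and 57.3), without overlap, a difference of 24.2 (SE 13.2, exact permutation p = 0.333, adjusted 0.75 over the 9 tests). For NPM1 the groups overlapped and differed by 9.74 (SE 13.9, exact permutation p = 0.667). In the edgeR fit the sums stood at log2 0.43 (SE 0.14, edgeR adjusted p = 0.59) for FGF18 and 0.14 (SE 0.11, edgeR adjusted p = 0.59) for NPM1, with 0 of 5011 features past the threshold (0.0%). With reads capped at the 90th percentile of the listed fragments within 2 Mb in each library, the FGF18 difference was -5.08. Most FGF18 fragments lay above this cap and were set to its value, so it cannot show how far they differ. The fragment next to the viewpoint lay above the cap in S1KO and below it in DKO. With no filter on low counts the FGF18 sum passed (edgeR adjusted p = 2.8e-05), the 1 called of 20389 features (0.0049%). Its SE was 0.07 there, against 0.28 with at least 10 reads in all 6 libraries, where it did not pass (edgeR adjusted p = 0.56). With 1 library left out it ran from 0.21 (without S1KO replicate 2) to 0.70 (without S1KO replicate 1). The size depends on the total used. With chr5 reads and TMM scaling the sums stood at log2 1.10 (SE 0.28, edgeR adjusted p = 0.52) for FGF18 and 0.86 (SE 0.13, edgeR adjusted p = 0.22) for NPM1. In shares of all chr5 reads DKO was higher by 20.8 per 1000 for FGF18 and 15.2 for NPM1. The medians over members and over all fragments were 0.19 and -0.34, and 0.90 and 0.22 with chr5 reads and TMM scaling.

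The 6 FGF18 fragments did not all lie on one side in this comparison. Higher in both DKO libraries than in both S1KO libraries were chr5:170858283-170862828 (log2 0.73, SE 0.20), chr5:170862833-170866306 (0.61, SE 0.27) and the last fragment, chr5:170881642-170892718 (1.12, SE 0.35), each with an edgeR adjusted p of 0.585. Lower were the fragment next to the viewpoint (log2 -2.99, SE 0.58, edgeR adjusted p = 0.47) and the sparse one, chr5:170866311-170873940. Over both genes 4 of 10 members lay higher without overlap and 4 lower, against 16.9% and 23.0% of the fragments tested within 2 Mb. None of the 10 members passed, as 0 of 5019 fragments did (0.0%), while 5 members and 2.27% of fragments had an unadjusted p under 0.05. DESeq2 called 1 member, the fragment next to the viewpoint (log2 -2.77, DESeq2 adjusted p = 0.041), among 6 fragments, or 0.644% of the 932 to which it gave an adjusted p. The comparisons share libraries, so their values are given side by side and were not set against each other.

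The ratio of FGF18 to NPM1 reads within a library needs no scaling. It was 0.925 and 0.694 in EV, 0.960 and 0.567 in S1KO and 0.877 and 0.953 in DKO, so NPM1 held more reads in all 6 libraries. On the log2 scale the mean (SD, n = 2) was -0.32 ± 0.29 for EV, -0.44 ± 0.54 for S1KO and -0.13 ± 0.09 for DKO. The differences were -0.12 (SE 0.43) for S1KO minus EV, 0.19 (SE 0.22) for DKO minus EV and 0.31 (SE 0.38) for DKO minus S1KO, with exact permutation p-values of 1, 0.667 and 1. The SD between replicates in S1KO was larger than each of these differences, and that in EV larger than the first and second.

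**Figure D5:**
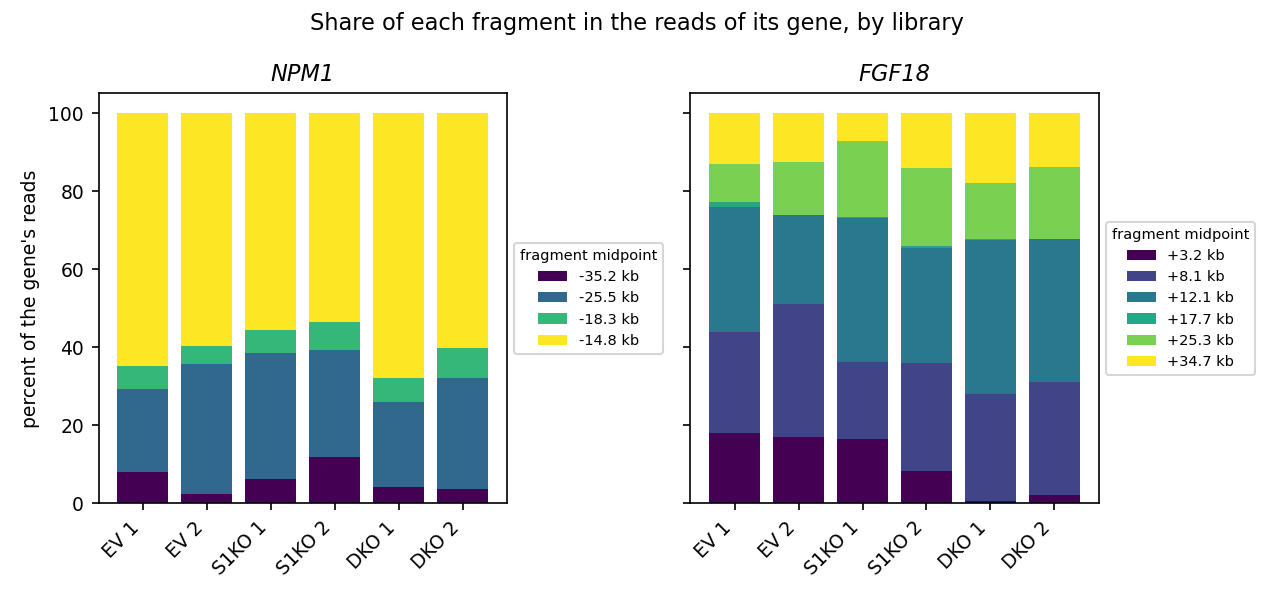
Percent of each gene's reads held by each of its fragments, by library; colours give the distance of the fragment midpoint from the viewpoint. The fragment at 3.19 kb takes 18.0% and 16.9% of FGF18 reads in EV and 0.496% and 2.06% in DKO, while the fragment at 14.8 kb below takes 53.6% to 67.8% of NPM1 reads throughout.

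The division of NPM1 reads among its 4 fragments was not tested. The fragment with the 3′ end held 62.2% ± 3.64 of the reads in EV, 54.5% ± 1.39 in S1KO cells and 64.0% ± 5.45 in DKO. Both S1KO libraries lay below the other 4 for this fragment. The start fragment of NPM1 held 7.95% and 2.49% of the gene's reads in EV, 6.33% and 11.9% in S1KO and 4.28% and 3.71% in DKO. Both S1KO libraries thus lay above both DKO libraries, with the EV libraries overlapping S1KO. For the long inner fragment, chr5:170820839-170833077, the groups overlapped, between 21.4% and 33.2%.

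Within FGF18 the fragment chr5:170873945-170881637 held 9.90% and 13.7% of the reads in EV, 19.5% and 20.1% in S1KO and 14.4% and 18.3% in DKO. The groups did not overlap, with S1KO the highest and EV the lowest. The fragment chr5:170862833-170866306 held 32.1% and 22.9% in EV, 37.0% and 29.4% in S1KO and 39.7% and 36.8% in DKO. There S1KO overlapped both other groups.

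The median absolute log2 difference in share between the 2 replicates was 0.33 for EV (9 members with at least 10 reads in both libraries), 0.51 for S1KO (10 members) and 0.30 for DKO (9 members). The largest differences among members were 1.53, 1.48 and 1.86. Over all such fragments within 2 Mb the median was 1.01, 0.74 and 0.75. Members hold more reads than most of these.

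By the deposited q-values, which the authors gave per fragment and library, 7 and 4 of the 10 members were called interactions at q under 0.05 in EV, 6 and 6 in S1KO and 5 and 6 in DKO. Over all listed fragments within 2 Mb the share called was 1.83% and 1.34% in EV, 2.56% and 2.47% in S1KO, and 1.3% and 2.45% in DKO. Called in 6 of 6 libraries were the NPM1 fragments chr5:170835262-170840025 and chr5:170820839-170833077 and the FGF18 fragments chr5:170858283-170862828 and chr5:170862833-170866306. The fragment next to the viewpoint was called in 2 libraries, EV replicate 1 and S1KO replicate 1. Never called were chr5:170833082-170835257 in NPM1 and chr5:170866311-170873940 in FGF18.

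Outside the 2 genes, the fragments whose log2 shares over the 6 libraries were most like the gene sums were sought among 269 fragments within 2 Mb that had at least 10 reads in every library. For NPM1 the highest Pearson r was 0.995, at chr5:171680332-171686648, 831 kb above the viewpoint, followed by 0.975 at chr5:171077998-171084341 and 0.947 at chr5:172610699-172613858. For FGF18 it was 0.981 at chr5:171581120-171583368, 730 kb above, then 0.973 at chr5:171707155-171707790 and 0.925 at chr5:170376829-170387128, 470 kb below. The median r over all 269 was 0.00546 for NPM1 and -0.10 for FGF18. These are the highest values of many over only 6 libraries with the same totals, and serve as a description.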

How the data were processed

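Bowtie2 2.2.5 and the build hg19 are named in the submitters' processing notes; the program that counted fragments and called interactions is not given in the sources used here. The deposited files list, per library, HindIII fragments with at least 1 read. The authors deposited raw read counts for them. The column headed RPMs is taken as a score, per the file headers and its sums, and was not used. Each fragment also has a p-value and a q-value that the authors computed. Fragments not listed were counted as 0. Gene and viewpoint coordinates on hg19 came with the choice of members. Exons and introns were not used here.

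Shares are reads per 1000 chr5 reads of fragments whose midpoint lies within 2 Mb of the viewpoint midpoint, viewpoint fragment left out, compared by exact two-sided permutation tests. All chr5 fragments with at least 10 reads in at least 2 libraries were tested with edgeR 4.0.16 (R 4.3.3; quasi-likelihood, 6 libraries in 1 fit, reads within 2 Mb as library size, Benjamini-Hochberg, threshold 0.05), then again with each gene as a sum. DESeq2 1.42.0 was an alternative. The edgeR test was tested on simulated data for DKO minus EV. Changes were put into fragments drawn from all chr5 fragments tested with a mean share above the median. Members hold more reads than most of these, so the recovery is not a value for the members. At the spread of these libraries it recovered few of the changed fragments, and at a small spread most, so a fragment that did not pass is not shown to be unchanged. Named are all member fragments and the 3 outside fragments most like each gene sum. Python 3.11.15, numpy 2.4.6, pandas 2.3.3, scipy 1.17.1 and matplotlib 3.10.9 were used. Members and tests were chosen with earlier results of these data known.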

Additional observations from a re-analysis of the deposited data

How the results depend on the processing

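With 2 libraries a group, a gene sum cannot pass an exact test, and the replicates of a gene sum lay further apart than counting error alone gives. Shares within 100 kb, and FGF18 without the fragment next to the viewpoint, were tried after seeing the data. DKO minus EV turned for FGF18 to 13.8 per 1000 without fragments within 10 kb, 14.1 in shares of chr5, 2.92 in shares within 10 Mb and 11.9 without the fragment next to the viewpoint, and for NPM1 to 10.9 in shares of chr5. DKO minus S1KO turned for NPM1 to -1.18 with fragments wholly inside the gene, -5.72 without its 3′ end fragment, -1.81 with capped reads, -0.441 by fragments with at least 1 read and -22.6 in shares within 100 kb, and for FGF18 to -5.08 with capped reads and -0.661 by fragments with a read. The log2 ratio of FGF18 to NPM1 turned for S1KO minus EV to 0.17 without fragments within 10 kb and 0.13 by fragments with a read, for DKO minus EV to -0.29 and for DKO minus S1KO to -0.18 with capped reads, and stood at 0 for the last by fragments with a read. Every member had reads in each S1KO and DKO library. By fragments with a read, DKO minus S1KO thus follows only the number of fragments listed within 2 Mb, its ratio of 0 was fixed, and neither describes the genes. Without turning, S1KO minus EV shrank for NPM1 to -4.31 in shares of chr5, -3.71 without its 3′ end fragment, -6.21 with fragments wholly inside the gene and -2.32 with capped reads, and for FGF18 to -6.71 in shares of chr5, -8.67 without fragments within 10 kb and -5.05 with capped reads. Capping sets every fragment above the limit to the same value, and most members lay above it. Capped values thus cannot show differences among the high fragments. The cause of these shifts was not tested.

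In the edgeR fits, the DKO minus EV sums turned with chr5 reads and TMM to log2 0.67 (NPM1) and 0.81 (FGF18), and with DESeq2 to 0.0050 and 0.17. The S1KO minus EV sums passed with no filter at -0.39 (NPM1) and -0.49 (FGF18), 2 called of 20389, and FGF18 at -0.51 with the replicate block, 1 of 5011. For DKO minus S1KO, FGF18 passed with no filter at 0.43, 1 of 20389. The count of members called was 0 for DKO minus EV with chr5 reads and TMM, with only fragments within 2 Mb or with only the 4 libraries. With no filter it was 1 for S1KO minus EV, 1 called of 20397 fragments. For DKO minus S1KO it was 1 with DESeq2 (6 called of 932 with an adjusted p), no filter (1 of 20397), at least 10 reads in all 6 libraries (1 of 296) or the replicate block (1 of 5019).

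Among single fragments, DKO minus EV turned with chr5 reads and TMM to log2 0.18 (start of NPM1), 0.59 (inner NPM1), 0.71 (3′ end of NPM1) and 0.79 (chr5:170858283-170862828), and with DESeq2 to 0.049 and 0.11 for the last 2. DKO minus S1KO of the inner NPM1 fragment turned to 0.59 and 0.086 under these, and S1KO minus EV of chr5:170833082-170835257 to 0.090 with chr5 reads and TMM.

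With any 1 library left out, the share differences ran from -36.9 to -19.8 (NPM1) and -39.9 to -16.5 (FGF18) for S1KO minus EV, -29.5 to -7.68 and -13.1 to 5.02 for DKO minus EV, and -1.19 to 20.7 and 12.5 to 35.9 for DKO minus S1KO. The log2 ratio ran from -0.50 to 0.26, -0.018 to 0.40 and -0.071 to 0.69 in these comparisons. In the fit the sums of NPM1 and FGF18 ran from -0.53 to -0.26 and -0.76 to -0.27 for S1KO minus EV, -0.40 to -0.095 and -0.19 to 0.080 for DKO minus EV, and -0.019 to 0.29 and 0.21 to 0.70 for DKO minus S1KO. The count of members called ran from 0 to 1 for DKO minus EV, lost without either EV library, and from 0 to 1 for DKO minus S1KO, where the fragment next to the viewpoint passed without DKO replicate 2. A group left with 1 library was assumed to vary like the others. Single fragments that turned were, for S1KO minus EV, chr5:170813639-170820834 (-0.21 to 1.45), chr5:170820839-170833077 (-0.62 to 0.16), chr5:170833082-170835257 (-0.36 to 0.18), chr5:170862833-170866306 (-0.69 to 0.21) and the sparse chr5:170866311-170873940 (-2.43 to 8.36, the last against EV at 0 reads and no bound). For DKO minus EV they were chr5:170813639-170820834 (-1.15 to 0.38), chr5:170820839-170833077 (-0.74 to 0.036), chr5:170835262-170840025 (-0.45 to 0.033), chr5:170866311-170873940 (-5.93 to 4.86, likewise) and chr5:170881642-170892718 (-0.031 to 0.53). For DKO minus S1KO they were chr5:170833082-170835257 (-0.024 to 0.52) and chr5:170873945-170881637 (-0.059 to 0.39).

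Same-numbered libraries did not deviate together (correlations over 278 fragments of 0.084 for EV with S1KO, -0.12 for EV with DKO and -0.19 for S1KO with DKO), so the numbers were not taken as pairs. With the replicate block, the fragment next to the viewpoint also passed for DKO minus S1KO (log2 -2.97) and the FGF18 sum for S1KO minus EV (log2 -0.51, edgeR adjusted p = 0.046), and the call for DKO minus EV was kept.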
